A study of Drosophila melanogaster with 9 samples.

Results

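Gene expression was compared between the central nervous system (CNS) of larvae whose glia carried HtlACT, an activated form of the FGF receptor Heartless, and that of control larvae. The comparison used the 3 arrays of the genotype repoGal4>UAS-Htl[ACT] and the 3 arrays of the genotype repoGal4/+, out of 9 Affymetrix Drosophila arrays in all, and took in every probe set that is not a control of the manufacturer. The remaining 3 arrays, of repoGal4>UAS-InR tissue, entered only the estimate of the spread. Every genotype carried repoGal4, which drives Gal4 from the promoter of the glial gene repo, so the controls differed from the HtlACT larvae by the UAS-Htl[ACT] transgene. Each RNA sample was made from the whole CNS of 10 to 15 pooled wandering larvae reared at 25 °C. The study chose the genotype because activated Heartless makes glia overproliferate, so that genes expressed in glia could be read from whole CNS tissue.

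The fly larval CNS holds neural stem cells called neuroblasts, the ganglion mother cells and immature neurons they make, the working neurons of the larva, and several kinds of glia. Cortex glia wrap the cell bodies of neurons and neuroblasts, surface glia form the barrier to the haemolymph, and neuropil glia enter the synaptic regions. FGF receptors such as Heartless are receptor tyrosine kinases that act through Ras and the MAP kinase cascade, which ends in ETS transcription factors and switches on its own feedback inhibitors. Because the samples were whole tissue, fewer cells of a type and less RNA per cell cannot be told apart. Every array had also been scaled to the same mean, so a signal states a gene's level relative to the other RNA of that sample.

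The targeted gene was higher in the arrays labelled HtlACT, where the endogenous htl transcript and that of the transgene cannot be told apart. Signals of htl were 342.2, 271.2 and 278.8 in control tissue and 2345, 1899 and 1677 in HtlACT tissue. The glial marker repo, which encodes a homeodomain protein made in nearly all glia except those of the midline, gave 3055 to 3545 in control tissue and 8349 to 8386 in HtlACT tissue. The summed signal of 17 pan-neuronal genes was 57650 to 58550 on the control arrays and 26800 to 36700 on the HtlACT arrays, and that of 28 neuroblast genes was 57630 to 60280 and 39850 to 45950. Over the log2 signals of the 8552 features tested below, arrays of the same genotype correlated at 0.968 to 0.982, and control with HtlACT arrays at 0.909 to 0.935. The second control array stood apart for genes of other organs. Its 10 salivary gland and gut markers summed to 24930, against 2807 and 5583 in the other control samples and 2392 to 7173 in HtlACT tissue, and the gut protease Jon65Aiv alone read 8678 there against 43.41 and 3.71. Fat body storage genes did the same, since Lsp2 read 2858 against 235.9 and 302.7. Some calls below rested on that array or on another: counts of neuronal lists were mostly a little lower without the second control array (12 in place of 15 pan-neuronal genes, 17 in place of 20 presynaptic genes, 16 in place of 20 Dpr and DIP genes and 11 in place of 14 sodium and calcium channel genes), and a list count is given again where another scaling or a left-out array moved it by over 1.5 times. Counts of 1 or 2 in a list often moved by 1 in this way. The pnt gene, an ETS factor downstream of FGF receptors, is not analysed here.

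Of 8552 features tested (each gene as its brightest probe set, with probe sets that name no gene or several genes kept on their own, and the dimmer features left out), 1111 or 13% were higher and 1639 or 19.2% were lower in HtlACT tissue, 32.2% in either direction. A gene was called, and is said below to have risen or fallen, when it differed by at least 1.5-fold with an adjusted p of at most 0.05 in limma, with Benjamini-Hochberg adjustment over all features tested. Errors of log2 differences are standard errors of that fit, with n = 3 arrays in each genotype. The increases were larger than the decreases: 131 features rose and 13 fell at least 4-fold, and 14 rose and 3 fell at least 8-fold. Most differences were small, with a median log2 difference of -0.15 and an interquartile range of -0.52 to 0.24. That median moved to -0.04 when each array was centred on its own median, and the split then became 1359 higher and 1222 lower, or 52.7% higher among the calls in place of 40.4%, while quantile normalization gave 1267 and 1261 (50.1% higher). Medians of gene lists are therefore to be read against -0.15. The values nearest the limit were CG10171 at 0.59 (under the limit without any of 3 arrays) and CG33116 at -0.59 (under the limit without any of 4 arrays), inside, and CG7011 at 0.58 and Dis3 at -0.58, outside.

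**Figure D1:**
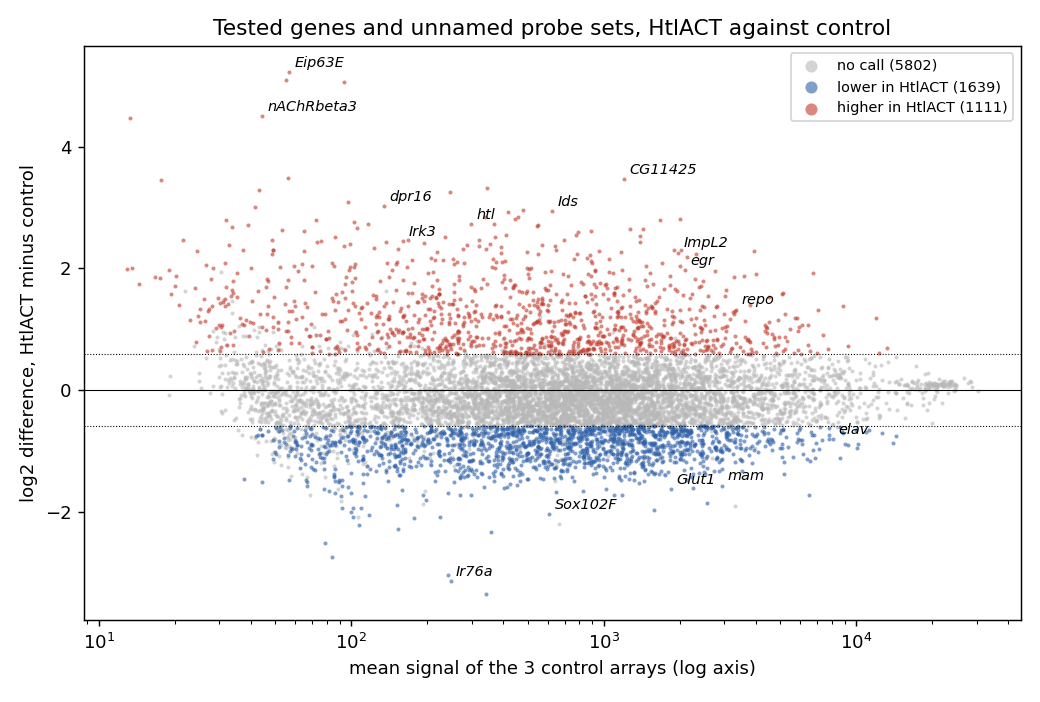
Mean signal of the 3 control arrays (log axis) against the log2 difference, HtlACT minus control, for the 8552 tested features, with called features in red (higher) or blue (lower) and the 1.5-fold limits as dotted lines. Red points reach above 5 on the log2 scale, while the blue points lie mostly between the limit and -2.

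Among the largest increases outside the known glial genes were several enzymes and surface proteins. CG11425, an uncharacterised gene, read 1055, 1479 and 1094 in control tissue and 13170, 14250 and 12270 in HtlACT tissue, a log2 difference of 3.47 ± 0.13 (adjusted p = 3.47e-06). Its 3 HtlACT values lay close together and far above every control value. The secreted protease stl, of the ADAMTS family, gave 97.3, 37.85 and 32.78 against 447.6, 808.6 and 473.7 (3.49 ± 0.57, adjusted p = 0.00121). Tdh, which encodes threonine dehydrogenase, read 320.2, 452.4 and 661.7 against 4405, 2245 and 4474 (2.95 ± 0.37, adjusted p = 0.000349). In each case the lowest HtlACT array exceeded the highest control array several times over.

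Among the largest decreases were channel and transporter genes. Mrp5, an ABC transporter, fell from 124.7, 175 and 159.7 to 9.102, 56.02 and 58.39 (-2.29 ± 0.66, adjusted p = 0.0178, but 0.0514 without the second control array), and the degenerin channel gene rpk fell from 144, 78.08 and 130.6 to 21.11, 20.75 and 46.62 (-2.06 ± 0.34, adjusted p = 0.00128). Ktl, of a family that acts with cullin ubiquitin ligases, read 1516, 1540 and 1697 in control tissue and 446.8, 304.5 and 476.3 in HtlACT tissue (-1.98 ± 0.16, adjusted p = 5.46e-05). The HtlACT values of Ktl were close together and far under the controls, whereas the first HtlACT array was much lower than the others for Mrp5.

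Neuronal genes fell as a class. Of 17 pan-neuronal and axonal genes tested, 15 fell, with a median log2 difference of -1.0, and all 15 had HtlACT arrays that lay under every control array, as 39.7% of all tested features did. The RNA-binding protein gene elav read 8779, 7555 and 8054 in control tissue and 3966, 5200 and 4831 in HtlACT tissue (-0.81 ± 0.11, adjusted p = 0.000482). The transcription factor gene onecut read 1375, 1054 and 1014 against 350.4, 526.4 and 397.3 (-1.44 ± 0.18, adjusted p = 0.000331). The microtubule-associated protein gene futsch read 1917, 2574 and 2927 against 751.3, 990 and 1730 (-1.16 ± 0.29, adjusted p = 0.0101). Groups were separate for each of these, and the log2 differences of the 17 genes ranged from -1.44 to -0.70. The other 2 genes, cpo and Sh, were not called.

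The machinery of transmitter release followed. Of 29 tested genes of presynaptic release and the vesicle cycle, 20 fell (median -0.99) and the other 9 were not called. Dynamin, encoded by shi, which pinches off recycled vesicles, read 1582, 2074 and 3116 in control tissue and 583.6, 720.4 and 1365 in HtlACT tissue (-1.39 ± 0.42, adjusted p = 0.0226, but up to 0.076 when an array was left out). VAChT, the vesicular acetylcholine transporter, gave 1204, 1148 and 1141 against 406.6, 534.8 and 496.8 (-1.29 ± 0.15, adjusted p = 0.000277), and Fife, a scaffold of the active zone, 342.7, 387.9 and 429.8 against 151.1, 169 and 180.2 (-1.21 ± 0.13, adjusted p = 0.000183). The cholinergic VAChT thus fell with little spread, while shi varied widely within each genotype. Not every member did so: the chaperone gene Csp, whose protein sits on synaptic vesicles, had a log2 difference of -0.29 and was not called.

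Receptor genes held sharp exceptions. Of the 9 nicotinic acetylcholine receptor subunits tested, 8 fell by 0.69 to 1.34 on the log2 scale and nAChRbeta3 rose, although nAChRalpha3 and nAChRalpha5 were not called without the second control array (-0.63 and -0.56). The subunit nAChRbeta2 read 669.3, 810.7 and 732.8 in control tissue and 314.6, 355.8 and 354 in HtlACT tissue (-1.11 ± 0.10, adjusted p = 6.45e-05). Control signals of nAChRbeta3 were 60.72, 35.87 and 36.22 and its HtlACT signals 912, 960.2 and 1050 (4.50 ± 0.20, adjusted p = 5.06e-06). Its HtlACT arrays thus agree closely and lie far above the controls, opposite to the other 8 subunits. Among 13 tested glutamate, GABA and related ligand-gated receptors 8 fell and alka rose. The glutamate-gated chloride channel gene GluClalpha read 235.2, 224.7 and 264.7 against 48.95, 100.5 and 83.9 (-1.69 ± 0.24, adjusted p = 0.000609), and the GABA receptor subunit gene Lcch3 1953, 2200 and 2056 against 799.8, 1058 and 971.8 (-1.14 ± 0.11, adjusted p = 0.000103). The chloride channel gene alka, known for alkaline taste in the fly, rose from 45.62, 37.08 and 45.38 to 134.8, 135.5 and 124.3 (1.63 ± 0.11, adjusted p = 1.98e-05). Each group of alka was tight and the genotypes lay far apart.

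Of 19 tested genes for amine synthesis and amine, muscarinic and adenosine receptors, 15 fell (median -1.03) and AdoR, the adenosine receptor gene, rose. Dopa decarboxylase, Ddc, which makes dopamine and serotonin, read 631.5, 678.1 and 716 in control tissue and 285.1, 214.5 and 325 in HtlACT tissue (-1.32 ± 0.16, adjusted p = 0.000275). The dopamine transporter DAT read 297.5, 219.3 and 259.9 against 95.78, 103.6 and 111.9 (-1.31 ± 0.12, adjusted p = 9.14e-05). AdoR rose from 36.82, 23.1 and 34.94 to 137.8, 151.5 and 110.7 (2.09 ± 0.34, adjusted p = 0.00115). Its control values of 23.1 and 34.94 lay under 35.1, the mean signal of the dimmest feature tested. All 3 genes had groups that did not overlap.

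Neuropeptides fell too: 27 of 33 tested precursors (median -0.87), the other 6 not being called. FMRFa read 1180, 1355 and 1600 in control tissue and 470.4, 433 and 523.2 in HtlACT tissue (-1.53 ± 0.13, adjusted p = 5.71e-05), and NPF, the fly's neuropeptide F, 870.9, 1050 and 1049 against 488.3, 306.1 and 474 (-1.25 ± 0.19, adjusted p = 0.000768). The insulin-like peptides Ilp2 and Ilp5, made by median neurosecretory cells of the brain, fell from 2208, 2401 and 2717 to 1557, 1155 and 1462 (-0.82 ± 0.16, adjusted p = 0.00309) and from 3360, 3865 and 3739 to 1998, 1742 and 1927 (-0.95 ± 0.17, adjusted p = 0.00197). Myosuppressin, Ms, a peptide that slows muscle, changed less and read 6307, 7004 and 7059 against 4244, 3747 and 4192 (-0.74). Akh, made in the corpora cardiaca of the ring gland, gave 454.5, 483 and 520.9 against 1392, 351.6 and 756.7 and was not called (adjusted p = 0.284). Of 10 tested processing genes 6 fell, among them the prohormone convertase amon with 1722, 1594 and 1782 against 681.8, 757.2 and 804.5 (-1.19 ± 0.10, adjusted p = 5.2e-05), and svr, a carboxypeptidase, rose by 0.84. Phm, which amidates peptides, read 2568, 2858 and 2593 against 3485, 3731 and 3573 and was not called at 0.43.

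Peptide and hormone receptors fell more often than they rose. Of 16 tested, 9 fell, and Dh44-R2 and moody, a receptor of the brain barrier counted in this list, rose. Quantile normalization gave 5 lower and 3 higher. Within the pair of receptors for diuretic hormone 44, Dh44-R1 fell from 142.7, 155.5 and 143.8 to 80.88, 80.39 and 55.2 (-1.05 ± 0.15, adjusted p = 0.000619) and Dh44-R2 rose from 196.9, 229.8 and 238.1 to 659.1, 598.6 and 531.2 (1.43 ± 0.11, adjusted p = 3.46e-05). Another probe set of Dh44-R2 gave 93.1, 114.9 and 114 against 338, 340.8 and 270.2, so both of its probe sets had separate groups.

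Ion channel genes went in both directions. Of 17 tested potassium channel genes 6 fell and 4 rose, and the 4 that rose were the inward rectifiers Irk1, Irk2 and Irk3 and the leak channel Ork1. Irk3 read 144.5, 158.5 and 179.4 in control tissue and 1071, 807.3 and 763.3 in HtlACT tissue (2.44 ± 0.17, adjusted p = 2.73e-05). Ork1 rose from 62.41, 37.28 and 47.87 to 315.6, 150.5 and 281.1 (2.30 ± 0.31, adjusted p = 0.000485), and Irk1 from 176.1, 173.2 and 152.6 to 316.8, 383.9 and 306.3 (1.0 ± 0.10, adjusted p = 0.000143). The HtlACT arrays were above the controls in every case, though the second was well under the others for Ork1. Irk2 was the least firm, at 0.72 and without a call when any of 4 arrays was left out (adjusted p up to 0.0809). Among the channels that fell, the voltage-gated Shaw read 224.2, 180.5 and 142.5 against 90.99, 99.82 and 92.94 (-0.92 ± 0.17, adjusted p = 0.00246), and the calcium-activated SK channel 396.1, 553.2 and 560 against 145.7, 255.9 and 382.7 (-1.03 ± 0.35, adjusted p = 0.0332, but up to 0.0909 when an array was left out). Leak channels did not move together, since Task7, a leak channel like Ork1, fell from 579.6, 561.7 and 551.4 to 287.1, 304.9 and 284.2 (-0.95 ± 0.08, adjusted p = 5.2e-05). Sur, which encodes the sulphonylurea receptor that in mammals partners inward rectifiers, rose from 116.3, 97.73 and 68.45 to 189.3, 212 and 219.7 (1.17 ± 0.18, adjusted p = 0.000887).

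Of 18 tested sodium and calcium channel genes, auxiliary subunits included, 14 fell (median -0.99) and Itpr, the inositol trisphosphate receptor of the endoplasmic reticulum, rose from 84.82, 83.97 and 76.99 to 170.6, 111.5 and 168.2 (0.85 ± 0.17, adjusted p = 0.0036). The sodium leak channel gene na fell from 77.61, 55.21 and 66.99 to 27.39, 13.22 and 30.2 (-1.57 ± 0.34, adjusted p = 0.00491), and its partner unc80 from 134.2, 189.7 and 153.6 to 82.85, 50.62 and 89.17 (-1.13 ± 0.27, adjusted p = 0.00764). Only 6 of 37 TRP and pickpocket (ppk) channel genes on the array were bright enough to test. The 3 that rose, pyx, pain and wtrw, all encode TRPA channels, which sense heat, touch or humidity in larvae and flies. The degenerin gene rpk, which is not in this list, fell by 2.06 as given above. Signals of pain were 117.1, 161 and 144.4 in control tissue and 599.2, 432.9 and 496.7 in HtlACT tissue (1.85 ± 0.19, adjusted p = 0.000149), and those of wtrw 251.7, 276.4 and 311 against 707.5, 584.2 and 645.3 (1.21 ± 0.10, adjusted p = 5.77e-05). Groups were well separated for both channels.

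**Figure D2:**
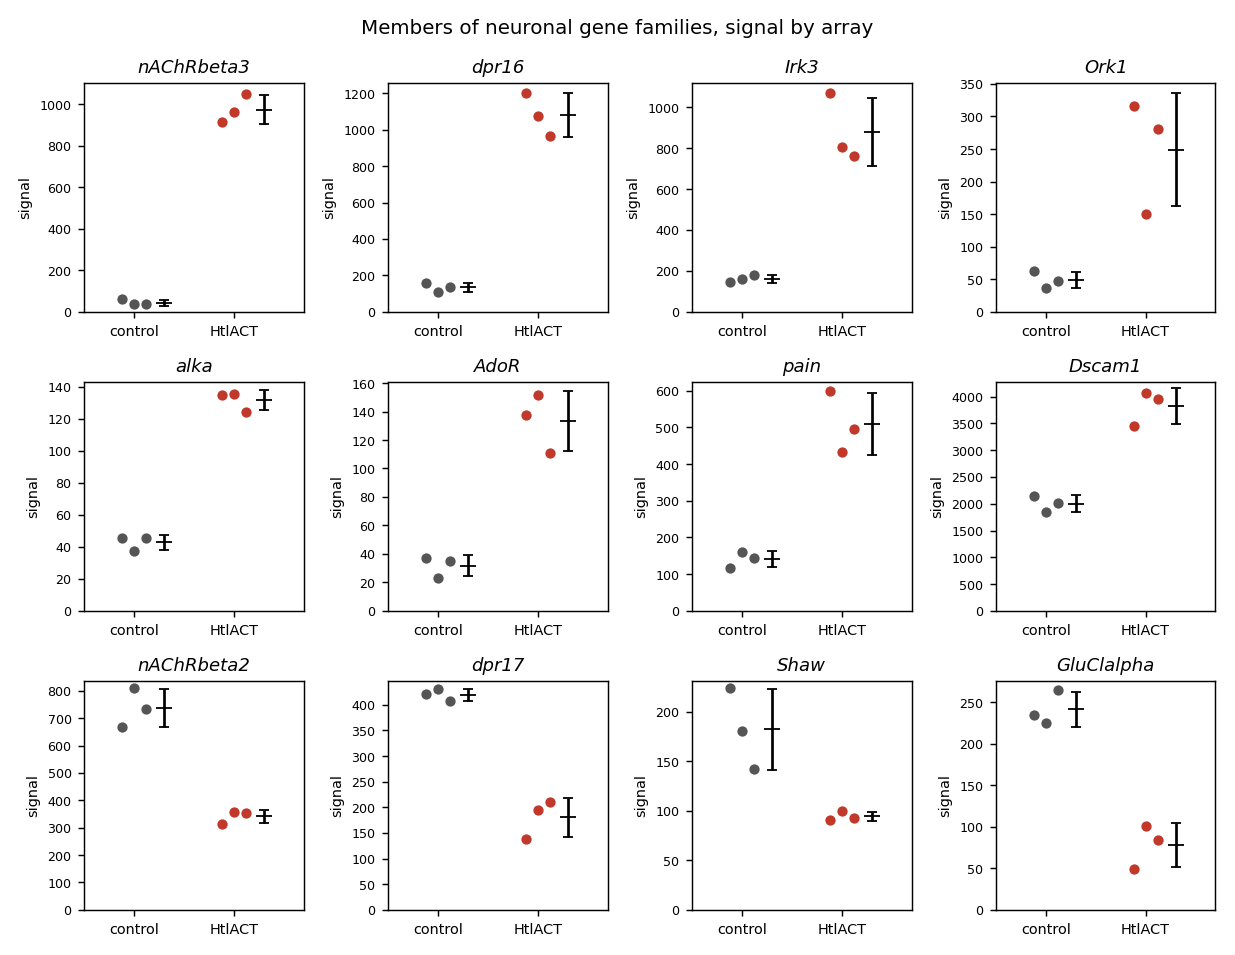
Signal on each array (points, linear axes from 0) with the mean and SD of the 3 arrays (bars) for 12 genes of neuronal families. The first 8 panels show members that rose, such as nAChRbeta3 and Irk3, and the last 4 show relatives that fell, such as nAChRbeta2 and Shaw.

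Surface proteins of neurons gave the same picture with the same kind of exception. Among 25 tested Dpr and DIP genes, immunoglobulin proteins that pair on synaptic partners, 20 fell (median -0.95) and dpr16 rose. The gene dpr7 fell by 0.92 on the log2 scale, and dpr17 went from 420.4, 430.9 and 406.9 to 137.8, 194 and 210 (-1.24 ± 0.15, adjusted p = 0.000281). By contrast dpr16 went from 159, 108.8 and 135.8 to 1201, 1077 and 964 (3.02 ± 0.16, adjusted p = 9.65e-06). Beat and Side proteins, another partner pair of motor axons and muscles, fell in 12 of 17 genes (median -0.95; 7 under quantile normalization), led by beat-IIa with 1399, 1167 and 988.8 against 340.3, 456.1 and 287.1 (-1.73 ± 0.23, adjusted p = 0.000456). Of 34 tested axon guidance genes 22 fell and Dscam1 rose. The guanine exchange factor trio fell from 1839, 1631 and 1760 to 529.9, 802.5 and 669.3 (-1.40 ± 0.17, adjusted p = 0.000283), and the phosphatase Lar from 853.4, 1057 and 975.7 to 337.2, 512.7 and 461.4 (-1.16 ± 0.16, adjusted p = 0.000601). Dscam1 rose from 2151, 1844 and 2016 to 3445, 4066 and 3958 (0.93 ± 0.10, adjusted p = 0.00017) while its paralogues Dscam3 and Dscam4 fell by 1.21 and 1.59.

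Other adhesion molecules also divided. Of 23 tested cadherins and nectin-like or neuroligin proteins 13 fell and 2 rose. The neuroligin gene Nlg2 fell from 1461, 1523 and 1281 to 528.1, 632.3 and 608.1 (-1.27 ± 0.10, adjusted p = 4.95e-05), and the atypical cadherin ds from 275.7, 265.8 and 358.3 to 118.9, 110.7 and 126.5 (-1.33 ± 0.17, adjusted p = 0.000388). The immunoglobulin proteins bdl and Ama rose, bdl from 366.5, 348.7 and 369.3 to 1582, 1058 and 1861 (2.02 ± 0.19, adjusted p = 8.67e-05) and the secreted Ama, amalgam, from 12310, 12130 and 11540 to 27050, 25190 and 29970 (1.19 ± 0.10, adjusted p = 6.32e-05). The second HtlACT array was the lowest of its group for both.

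For a few genes the probe sets of the same gene moved in opposite directions. Each probe set was here tested on its own among all 18769, of which 6.28% were higher and 8.83% lower, and the genes were picked after their values were seen. Of 460 genes with more than 1 probe set bright enough to test, 276 had the same call on each, and 3 had a probe set that rose and another that fell. The adhesion protein gene Nrg, neuroglian, which is known to be spliced into a neuronal form and a form made elsewhere, was among them. A probe set of Nrg fell from 1918, 2188 and 2002 to 828.3, 1090 and 1266 (-0.96 ± 0.19, adjusted p = 0.0124). Another rose from 1696, 1532 and 1728 to 3278, 3556 and 3125 (1.01 ± 0.12, adjusted p = 0.00241), and the third rose by 0.59. Which transcripts each of them reads is not given in the sources used here. MICU3, of the mitochondrial calcium uptake family, had probe sets at 0.94 and -0.62, and CG42342 at 1.26, 1.44 and -0.87. Some calls reported here also depend on the use of the brightest probe set. The brightest probe set of Cbl fell and the other stood at 0.58 without a call, and of 3 probe sets of the glucose transporter gene Glut1 only the brightest fell. When a gene's probe sets were averaged instead, Dscam1 stood at 0.16, ClC-a at 0.51, Irk1 at 0.73, Nlg2 at -0.95, Dscam4 at -0.96, Rbp6 at -0.56 and Traf4 at -0.25, and none of these 7 was called. The other probe set of Dscam1 (1.93 to 28.04) and that of Irk1 (0.8722 to 4.022) were too dim to test.

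Genes of neural progenitors fell as well. Of 28 tested neuroblast genes 19 fell (median -0.83) and 1 rose. The stem cell factor erm, which keeps intermediate progenitors from reverting, read 2941, 3036 and 2869 in control tissue and 1032, 1351 and 1253 in HtlACT tissue (-1.29 ± 0.10, adjusted p = 4.88e-05). The snail-family gene esg read 1211, 1240 and 1390 against 588.5, 598.9 and 576.1 (-1.12 ± 0.07, adjusted p = 2.02e-05), and the proneural gene ase 968.5, 1006 and 1086 against 543.5, 455 and 517.2 (-1.02 ± 0.10, adjusted p = 0.000126). For these genes the 2 genotypes did not overlap and the arrays within each lay close together. The exception was Galphai, a G protein subunit that orients the neuroblast spindle and also acts below the receptor Moody at the brain barrier, which rose from 3791, 3770 and 3597 to 6773, 7007 and 6101 (0.83 ± 0.07, adjusted p = 6.43e-05). Of 12 tested proneural and neurogenesis factors 10 fell, nerfin-1, a zinc finger factor of new neurons, from 7179, 6191 and 5783 to 2664, 3231 and 2847 (-1.13 ± 0.12, adjusted p = 0.000146).

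The factors that give neuroblasts and neurons their identity behaved alike. Of 27 tested temporal and optic lobe factors 20 fell and Kr rose, of 24 LIM and homeobox factors of neurons 16 fell, of 11 Sox and POU factors 7 fell, and of 7 Hox and gap genes 3 fell. The retinal determination gene dac, also used in the mushroom bodies, fell from 2523, 1969 and 1907 to 596.7, 927.6 and 779 (-1.49 ± 0.18, adjusted p = 0.000281), and the LIM factor ap, apterous, from 1224, 1036 and 809.3 to 269.2, 491 and 266 (-1.62 ± 0.29, adjusted p = 0.00185). Sox102F fell from 692.3, 581.5 and 551.4 to 115.2, 197.3 and 139.9 (-2.04 ± 0.20, adjusted p = 0.000126). Against it stood SoxN, a factor of neural progenitors, whose log2 difference was 0.02, and zfh1, a zinc finger homeodomain factor of motor neurons and glia, at 0.18, neither of them called. Imaginal disc and eye genes fell in 14 of 17, but 3 of the 5 largest decreases, ap, dac and eya, are also optic lobe or neuronal genes of the lists above. Of this list sev, the receptor tyrosine kinase known from the eye, rose from 173.3, 211.2 and 281.5 to 632.5, 396.9 and 725.9 (1.38 ± 0.27, adjusted p = 0.00277).

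Of 36 tested DNA replication genes 1 rose (Psf1, a subunit of the GINS complex, by 0.72) and the other 35 were not called, 15 of them being lower at an unadjusted p of 0.05, and significance analysis of microarrays (SAM), the test the study used, gave the same single call. PCNA, the sliding clamp, read 6623, 8353 and 8898 in control tissue and 6942, 6888 and 8300 in HtlACT tissue, groups that overlapped. Of 33 mitosis and cytokinesis genes 10 fell (median -0.50, against -0.18 for replication), and 6 under quantile normalization or median centring. In 28 of the 33 every HtlACT array lay under every control array, as it did for 39.7% of all tested features. Incenp, a subunit of the chromosomal passenger complex, read 1475, 1657 and 1592 against 890.6, 723.6 and 915.7 (-0.91 ± 0.11, adjusted p = 0.000257), and the condensin subunit barr 1523, 1544 and 1723 against 894.8, 854.6 and 1049 (-0.78 ± 0.10, adjusted p = 0.000325). The difference between these lists was not tested. Among 26 cyclins, kinases and cell cycle regulators 4 fell, or 15.4% against 19.2% of all tested features. The count was 2 under quantile normalization or median centring and 7 without the first HtlACT array. CycE fell from 1568, 1175 and 1497 to 977.6, 949 and 812.4 (-0.62 ± 0.23, adjusted p = 0.0444, but up to 0.122 when an array was left out). The kinase gene Eip63E rose 37.4-fold, whereas its partner cyclin CycY was at -0.26 without a call.

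General growth genes stayed nearly level. On the deposited scaling none of 69 mitochondrial ribosomal protein genes was called in limma or SAM, although 3 were higher under quantile normalization or median centring and 4 without the second HtlACT array. At an unadjusted p of 0.05, 17 were higher and 4 lower. None of 25 nucleolar ribosome biogenesis genes was called by either, with 1 higher and 4 lower at that unadjusted p. Both lists thus differed in a smaller share than all features did, 5288 of 8552 at that unadjusted p. Of 35 cytoplasmic ribosomal protein genes 2 fell, and these were RpS5b and RpS19b, the second copies of 2 duplicated genes: RpS5b read 607, 594.4 and 585 in control tissue and 317.2, 312.3 and 400.4 in HtlACT tissue (-0.80 ± 0.10, adjusted p = 0.000339). The median of that list was 0.07, and -0.03 after quantile normalization, so it has no direction, and RpS19b lost its call without any of 4 arrays (adjusted p up to 0.0802). Of 28 proteasome genes 1 fell, Rpt3R, again a duplicate copy, from 245, 282.6 and 292.4 to 155.1, 137.3 and 181.4 (-0.80 ± 0.16, adjusted p = 0.00299). Of 30 aminoacyl-tRNA synthetases CysRS alone rose, by 0.63, and it stood at 0.56, under the limit, without the second control array.

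Regulators of gene expression fell in part. Of 36 tested chromatin regulators 14 fell (median -0.55) and the others were not called, the count being 7 after median centring, 17 after quantile normalization and 8 without the first HtlACT array. The Polycomb group gene Psc read 610.7, 758.9 and 776.4 in control tissue and 279.5, 331.3 and 439.5 in HtlACT tissue (-1.05 ± 0.19, adjusted p = 0.00204), and Pc, Polycomb itself, 927.6, 843.3 and 771.7 against 485, 498.2 and 402.7 (-0.88 ± 0.12, adjusted p = 0.000447). Of 32 RNA-binding and splicing regulators 12 fell, led by Rbp6 (2909, 2946 and 2367 against 767.8, 1423 and 1186, -1.32 ± 0.22, adjusted p = 0.00126), a relative of the neural stem cell protein Musashi. Of 14 nuclear receptors 2 fell, or 14.3% against 19.2% of all tested features. In this list Hnf4, a regulator of fatty acid use, rose from 285.2, 200.1 and 247.4 to 461.3, 629.7 and 496.1 (1.12 ± 0.16, adjusted p = 0.00068).

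**Figure D3:**
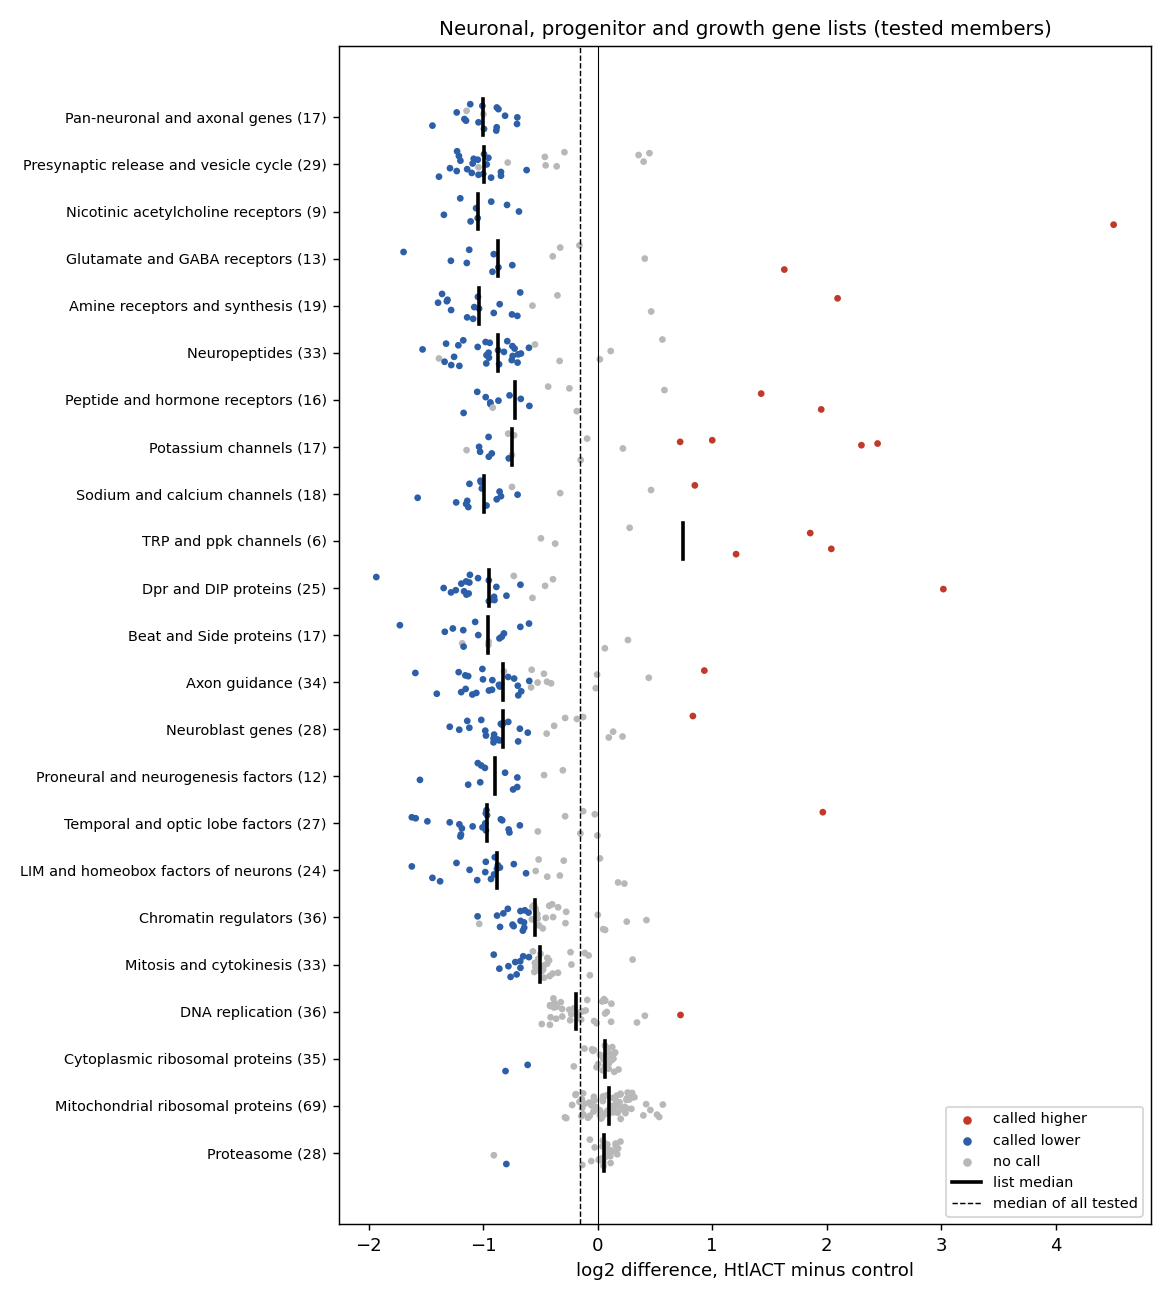
Log2 difference, HtlACT minus control, of each tested member (points) of 23 neuronal, progenitor and growth gene lists, with the number tested in brackets, the list median as a black bar and the median of all tested features, -0.15, as a dashed line. Neuronal and progenitor lists have medians of -1.05 to -0.72, mostly with 1 red exception or none, apart from TRP and ppk channels with a median of 0.74. Potassium channels hold 4 red points. Replication, ribosomal and proteasome genes lie near 0.

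The secretory pathway was higher as a whole but by small steps. Of 38 tested genes of protein translocation and folding in the endoplasmic reticulum (ER), 9 rose and 1 fell, with a median of 0.47, and 33 had every HtlACT array above every control array, as 24.1% of all tested features did. After median centring 19 of the 38 were called higher. Manf, a secreted protein of the ER stress response that supports dopamine neurons, read 3302, 3334 and 3138 in control tissue and 7929, 7816 and 7912 in HtlACT tissue (1.28 ± 0.06, adjusted p = 5.47e-06). TRAM, at the translocation channel, read 2627, 2321 and 2301 against 5064, 5107 and 4635 (1.03 ± 0.09, adjusted p = 7.6e-05), and SrpRalpha, the receptor for the signal recognition particle, 1271, 1317 and 1321 against 2569, 2309 and 2565 (0.93 ± 0.11, adjusted p = 0.000255). The HtlACT values of Manf were nearly equal. Of 34 coat and Golgi genes 11 rose and 1 fell (median 0.38): the p24 cargo receptor loj went from 1051, 1160 and 1088 to 3313, 3452 and 3147 (1.59 ± 0.07, adjusted p = 5.06e-06), and the matrix proteins GM130 and Grasp65 rose by 0.88 and 0.84. The gene that fell was Rab2, from 290.4, 267.6 and 235.2 to 153, 184.9 and 141.2, known also for its part in the peptide vesicles of neurons.

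Lysosomal genes rose in 15 of 26 cases (median 0.70), and none of the tested members fell in limma or SAM or was lower at an unadjusted p of 0.05. Ids, iduronate sulphatase, which removes sulphate from heparan and dermatan sulphate, read 787.6, 521.9 and 559.1 in control tissue and 4766, 4970 and 4375 in HtlACT tissue (2.94 ± 0.17, adjusted p = 1.3e-05). Lip4, a lipase, read 616.9, 697 and 546.9 against 2440, 2656 and 2151 (1.96 ± 0.12, adjusted p = 1.49e-05). Other enzymes of heparan sulphate breakdown, picked after their values were seen, rose as well: Sgsh from 725.9, 799.8 and 647.1 to 2867, 3156 and 2065 (1.88 ± 0.15, adjusted p = 5.29e-05) and Naglu by 2.36. Proteases moved too. Cathepsin D, cathD, read 12990, 11930 and 12060 against 17870, 19030 and 19350 (0.60 ± 0.07, adjusted p = 0.000318), but was under the limit, at 0.58, without the second control or the third HtlACT array. CtsL2, a cathepsin L relative, read 12.77, 11.09 and 16.93 against 56.87, 46.27 and 58.84 (2.0 ± 0.16, adjusted p = 5.22e-05). Its control values lay under 35.1, the mean signal of the dimmest feature tested, so it was tested only because other arrays were brighter.

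The vacuolar ATPase, the proton pump that acidifies lysosomes and synaptic vesicles, changed its subunits in both directions. Of 17 tested genes 6 rose and 2 fell (median 0.45). Vha100-2, a membrane subunit, read 658.5, 712.2 and 836.3 in control tissue and 1893, 1425 and 1895 in HtlACT tissue (1.23 ± 0.14, adjusted p = 0.000193). Among 3 copies of the small subunit, VhaM9.7-b and VhaM9.7-c rose by 0.78 and 1.23 and VhaM9.7-a fell from 2634, 2546 and 2211 to 1071, 1175 and 1193 (-1.10 ± 0.10, adjusted p = 8.16e-05). Likewise VhaAC45 rose by 0.82 and its relative VhaAC45RP fell by 0.72. Of 28 autophagy genes 2 were called, 1 under quantile normalization or without the first HtlACT array and 0 after median centring. They were Atg1 and Atg101, both lower at -0.68 and -0.61, and Atg101 was under the limit, at -0.56, without the first HtlACT array.

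Energy metabolism was higher in parts. The respiratory chain and ATP synthase gave 4 higher and 1 lower of 59 tested, or 6.78% higher against 13% of all tested features. In 32 of the 59 every HtlACT array lay above every control array, as it did for 24.1% of all tested features. The median was 0.22. COX5B, a subunit of cytochrome oxidase, read 5672, 5805 and 6600 in control tissue and 9766, 7848 and 9762 in HtlACT tissue (0.59 ± 0.11, adjusted p = 0.00187), and was under the limit when any of 4 arrays was left out (0.54 to 0.57). After median centring 9 of the 59 were called higher, and 2 after quantile normalization or without the second control, first HtlACT or the third HtlACT array. Of 20 tested genes of the citric acid cycle and its side branches 6 rose and 1 fell: cytosolic malate dehydrogenase, Mdh1, read 3975, 4499 and 5134 against 10410, 8671 and 10470 (1.12 ± 0.11, adjusted p = 0.000132), and a malic enzyme, Men-b, fell from 1550, 1697 and 1841 to 945.7, 735 and 1010 (-0.93 ± 0.13, adjusted p = 0.000579). Glycolysis gave 5 higher and 2 lower of 16. Phosphofructokinase, Pfk, read 2065, 2393 and 3114 against 5071, 3194 and 4309 (0.73 ± 0.20, adjusted p = 0.0132, but 0.58 and under the limit without the first HtlACT array), whereas Glut1 read 1802, 1929 and 1792 against 414.1, 729 and 691.6 (-1.63 ± 0.20, adjusted p = 0.00034), with the limit on its other probe sets given above. The HtlACT values of Pfk were uneven, and counts for glycolysis ranged from 1 to 8 higher over the alternative settings, with 1 higher without the first HtlACT array, 2 without the first control or the third HtlACT array, 3 without the second control array and 8 without the third control or second HtlACT array.

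All 7 tested genes of the pentose phosphate and polyol pathways rose (median 0.78), and all 7 were called in SAM. The aldo-keto reductase gene CG10863 read 1055, 1299 and 1434 in control tissue and 4129, 3624 and 4054 in HtlACT tissue (1.65 ± 0.13, adjusted p = 4.14e-05). Sorbitol dehydrogenase Sodh2 read 169.8, 214.9 and 205.1 against 581.8, 291 and 568.6 (1.23 ± 0.27, adjusted p = 0.00551), and transaldolase, Taldo, 2169, 2430 and 2555 against 4429, 3320 and 4682 (0.78 ± 0.16, adjusted p = 0.00357). The second HtlACT array was the lowest of its group for each of these. It was also the lowest for several genes of sugar use, detoxification and transport named below, and its part in their spread was not tested.

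Lipid synthesis rose beside the lipid genes known from glia. Of 25 tested genes of fatty acid synthesis and storage 14 rose and 1 fell (median 0.66). Fatty acid synthase, FASN1, read 6460, 7260 and 7530 in control tissue and 16310, 17370 and 19290 in HtlACT tissue (1.32 ± 0.11, adjusted p = 6.48e-05). Acetyl-CoA carboxylase, ACC, which makes its substrate, read 812, 948.7 and 1014 against 2257, 1855 and 2329 (1.21 ± 0.15, adjusted p = 0.000318), and the lipid droplet protein gene Lsd-2 1469, 1503 and 1635 against 4134, 3972 and 3945 (1.39 ± 0.07, adjusted p = 8.18e-06). Synthesis and storage genes thus rose together with separate groups. Among 25 membrane lipid genes 8 rose and 1 fell: lace, a subunit of the enzyme that starts sphingolipid synthesis, went from 1588, 1544 and 1546 to 4567, 3875 and 3503 (1.34 ± 0.13, adjusted p = 9.59e-05), Pect, of the phosphatidylethanolamine pathway, from 3058, 3471 and 3445 to 8854, 8359 and 7460 (1.31 ± 0.09, adjusted p = 2.32e-05), and eas, ethanolamine kinase, fell by 0.93.

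Amino acid breakdown was among the highest lists, with 12 of 16 tested genes risen, 1 fallen and a median of 1.02. LKRSDH, which starts lysine breakdown, read 222.3, 206.5 and 194 in control tissue and 922.3, 1315 and 672 in HtlACT tissue (2.17 ± 0.22, adjusted p = 0.000132). Gcat, the enzyme that follows Tdh in threonine breakdown, read 560.5, 769.4 and 1119 against 3127, 2020 and 3095 (1.78 ± 0.39, adjusted p = 0.00511), and ornithine aminotransferase, Oat, 1031, 1182 and 1124 against 3877, 3561 and 3270 (1.68 ± 0.09, adjusted p = 8.73e-06). The enzymes of GABA breakdown rose together, Gabat from 269.1, 243.4 and 278.9 to 683.1, 671.1 and 511.8 (1.23 ± 0.12, adjusted p = 0.000126) and Ssadh from 1444, 1811 and 1965 to 3677, 2767 and 3161 (0.88 ± 0.14, adjusted p = 0.00111). The kynurenine enzyme KFase fell, from 105.3, 114 and 92.18 to 51.35, 75.11 and 46.71 (-0.87 ± 0.27, adjusted p = 0.0254), and was not called when any of 4 arrays was left out (adjusted p up to 0.0808).

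Synthesis of amino acids and one-carbon units gave 10 higher and 3 lower of 24. Nmdmc, a mitochondrial folate enzyme, read 865.2, 918.1 and 959.2 in control tissue and 3183, 2947 and 3079 in HtlACT tissue (1.75 ± 0.07, adjusted p = 3.73e-06). Its partner Shmt, which moves a carbon from serine to folate, read 1361, 1283 and 1812 against 3311, 3109 and 3025 (1.10 ± 0.13, adjusted p = 0.000297), and asparagine synthetase, AsnS, 644.4, 517 and 643.3 against 1556, 1326 and 1108 (1.14 ± 0.16, adjusted p = 0.000634). The glutamine synthetases differed. Gs1 fell from 1673, 1751 and 1798 to 991, 868.7 and 889.3 (-0.93 ± 0.11, adjusted p = 0.000304), while Gs2, the form abundant in neuropil glia, read 5281, 6337 and 7893 against 7295, 3040 and 6889 and was not called at -0.26 ± 0.33. Cbs, the transsulphuration enzyme cystathionine beta-synthase, fell from 1226, 1224 and 1147 to 745.5, 640.8 and 575.1 (-0.88 ± 0.11, adjusted p = 0.000328).

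Detoxification genes were led by the glutathione S-transferases, of which 17 of 25 tested rose and 2 fell (median 0.96). GstE1 read 687.9, 696.4 and 696.5 in control tissue and 4059, 3425 and 4025 in HtlACT tissue (2.46 ± 0.09, adjusted p = 3.41e-06), and GstT3 344.5, 366.2 and 350.2 against 1384, 2709 and 1728 (2.40 ± 0.22, adjusted p = 8.69e-05). GstD2 was uneven, with 42.93, 44.98 and 58.3 against 351.1, 86.85 and 383 (2.23 ± 0.59, adjusted p = 0.0124). The Gst genes lie in clusters of similar sequence, so a probe set may read a neighbour. GstZ2 fell from 3566, 3041 and 3326 to 1763, 1992 and 1925 (-0.80 ± 0.09, adjusted p = 0.000224). Of 29 tested cytochrome P450 genes 8 rose and 1 fell, with 57 others on the array too dim to test. Cyp4ac3 rose most, from 33.98, 37.69 and 53 to 482.8, 168.1 and 439 (3.01 ± 0.46, adjusted p = 0.000889). Of 9 tested UDP-glycosyltransferases 5 rose, and 3 without the first HtlACT array, Ugt35C1 from 51.17, 51.14 and 57.02 to 427.5, 233.7 and 349.1 (2.62 ± 0.20, adjusted p = 4.47e-05). Of 18 antioxidant genes 5 rose and 2 fell, with 2 higher without the second control array and 3 without the third control, second HtlACT or the third HtlACT array, and 1 lower without the first control array: Sod3, the extracellular superoxide dismutase, went from 850.7, 1101 and 1133 to 3349, 2720 and 3753 (1.67 ± 0.19, adjusted p = 0.000217), and Keap1, the inhibitor of the oxidative stress factor CncC, fell by 0.75.

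Transporters of metals rose in 8 of 20 tested genes, and none of the others fell in limma or SAM or was lower at an unadjusted p of 0.05. The zinc importer gene Zip71B read 102, 101.1 and 87.44 in control tissue and 1044, 632.6 and 838.1 in HtlACT tissue (3.09 ± 0.18, adjusted p = 1.26e-05). ZnT77C, of the family that moves zinc out of the cytoplasm, read 383.1, 376.4 and 355.4 against 2441, 2109 and 1832 (2.51 ± 0.12, adjusted p = 6.08e-06), and ZnT41F 308.6, 190.4 and 151.4 against 528.4, 693.6 and 590.2 (1.53 ± 0.25, adjusted p = 0.00113). Carriers of both kinds were thus among the risen genes, while 12 of the 20 metal genes were not called. The ferritin genes Fer1HCH and Fer2LCH, which store iron, were not called. Of 3 tested aquaporins, water and solute channels, 2 rose: Prip from 915.1, 1032 and 962.2 to 3521, 3429 and 2918 (1.76 ± 0.10, adjusted p = 1.03e-05) and bib by 0.86.

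Other solute carriers went in both directions within a family. Among 11 tested amino acid transporters, the light chain genes mnd and gb rose, mnd from 1616, 1650 and 1459 to 6147, 4772 and 4987 (1.74 ± 0.11, adjusted p = 2.07e-05) and gb, genderblind, a glial glutamate and cystine exchanger, from 1946, 1820 and 1755 to 6944, 5408 and 5913 (1.72 ± 0.12, adjusted p = 2.56e-05). In all, 4 of these rose and 3 fell, 1 under quantile normalization. Among 11 sodium-coupled neurotransmitter symporters 3 rose and 5 fell, the serotonin transporter SerT from 185.5, 268.2 and 262.7 to 112.6, 118.3 and 148.9 (-0.91 ± 0.18, adjusted p = 0.00301). Of 11 monocarboxylate and sugar transporters 5 fell, 2 under quantile normalization and 3 after median centring or without the first or the third control or the second or the third HtlACT array. In this list kar, karmoisin, rose from 1290, 1321 and 1436 to 3481, 2347 and 3011 (1.11 ± 0.14, adjusted p = 0.000385), and Sln, a transporter of the same monocarboxylate family, fell from 516, 568.2 and 571 to 256.9, 280.4 and 329.5 (-0.94 ± 0.11, adjusted p = 0.000267).

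Among 20 tested ion pumps, exchangers and chloride channels 5 rose and 7 fell. The largest increase was that of zyd, an exchanger that moves calcium, sodium and potassium, from 1193, 1478 and 1510 to 8379, 6682 and 7373 (2.43 ± 0.12, adjusted p = 5.71e-06). ClC-a rose from 571.3, 475.7 and 533.3 to 1644, 1546 and 1625 (1.61 ± 0.10, adjusted p = 1.79e-05), and ClC-c from 2757, 2101 and 2367 to 6239, 5880 and 5690 (1.31 ± 0.11, adjusted p = 6.16e-05). The sodium and calcium exchanger Calx fell from 69.9, 70.27 and 58.06 to 25.43, 28.5 and 18.05 (-1.48 ± 0.19, adjusted p = 0.000369). Calcium carriers thus included both a rise and a fall. Among the subunits of the sodium pump, nrv1 rose by 1.32 and the neuronal nrv3 fell from 11830, 12990 and 13290 to 7654, 7056 and 8734 (-0.70 ± 0.09, adjusted p = 0.000478). Of 8 tested carbonic anhydrases 2 rose, 2 fell (3 in SAM) and 4 were not called. The enzymes CAH7 and CAH9 rose, CAH7 from 1978, 2167 and 2825 to 11970, 9223 and 11430 (2.23 ± 0.20, adjusted p = 7.43e-05). The carbonic anhydrase-related proteins CARPA and CARPB fell, CARPA from 509.3, 576.5 and 583.2 to 297.7, 335.9 and 348 (-0.77 ± 0.09, adjusted p = 0.000207). Among those not called was CAH1, at 0.27. Of 13 organic ion transporters 6 rose, Oatp58Dc from 397.9, 572.4 and 530.3 to 2142, 1604 and 1849 (1.91 ± 0.17, adjusted p = 7.26e-05).

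Matrix genes rose more often than they fell. Of 15 tested basement membrane genes 6 rose and 2 fell (median 0.35). The integrin ligand tiggrin, Tig, read 412.4, 308.9 and 279.7 in control tissue and 1134, 935.1 and 1485 in HtlACT tissue (1.82 ± 0.22, adjusted p = 0.00028), and nidogen, Ndg, 122, 109.9 and 145.7 against 466.3, 230.5 and 407.8 (1.5 ± 0.25, adjusted p = 0.00137). Mp, multiplexin, a collagen with an endostatin part, fell from 2116, 2072 and 2029 to 944.1, 1171 and 1033 (-0.99 ± 0.10, adjusted p = 0.000108). Of 19 integrins, adhesion proteins and matrix proteases 9 rose and 2 fell. Timp, the inhibitor of matrix metalloproteases, rose from 324.6, 238.1 and 279.5 to 1292, 1192 and 1074 (2.09 ± 0.14, adjusted p = 2.52e-05), and the neprilysin Nep4, a peptidase, from 773.9, 973.2 and 865.5 to 3558, 2874 and 3358 (1.91 ± 0.11, adjusted p = 1.22e-05). The integrin subunit mew fell by 0.76. Among 11 heparan sulphate genes ttv, a polymerase of the sugar chain, rose from 590.2, 601.8 and 636.9 to 1340, 1444 and 1192 (1.12 ± 0.09, adjusted p = 5.29e-05), and sfl, which adds sulphate to it, fell from 241.3, 271.6 and 281.5 to 103.2, 126 and 89.5 (-1.33 ± 0.18, adjusted p = 0.00051).

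The tetraspanins gave 6 higher and 1 lower of 18 tested, apart from the 15 that were too dim. Besides Tsp5D, lbm, late bloomer, rose from 299.3, 272.7 and 289 to 1450, 1551 and 1499 (2.39 ± 0.13, adjusted p = 9.36e-06). The others that rose were Tsp42Ea, Tsp42Ee, Tsp42Ef and Tsp42El, by 0.91 to 1.30, and the member that fell, Tsp42Ej, came from the same genomic cluster and went from 772.6, 910.9 and 867.9 to 517.6, 434.7 and 514.5 (-0.80 ± 0.10, adjusted p = 0.000414). In the cytoskeleton 4 of 31 genes rose and 7 fell, or 12.9% and 22.6%, near the 13% and 19.2% of all tested features. Median centring gave 8 higher and 6 lower, and 2 were higher without the first HtlACT array. The tubulin betaTub60D rose from 2484, 1471 and 1517 to 7146, 6025 and 6331 (1.87 ± 0.19, adjusted p = 0.000134) and betaTub97EF from 512.7, 560.7 and 632.8 to 1748, 1462 and 1544 (1.48 ± 0.12, adjusted p = 4.81e-05), while the neuronal ankyrin Ank2 fell from 7417, 5625 and 6732 to 2081, 3230 and 3741 (-1.16 ± 0.21, adjusted p = 0.00223). The kinesin unc-104, which carries synaptic vesicle precursors, fell by 0.88.

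**Figure D4:**
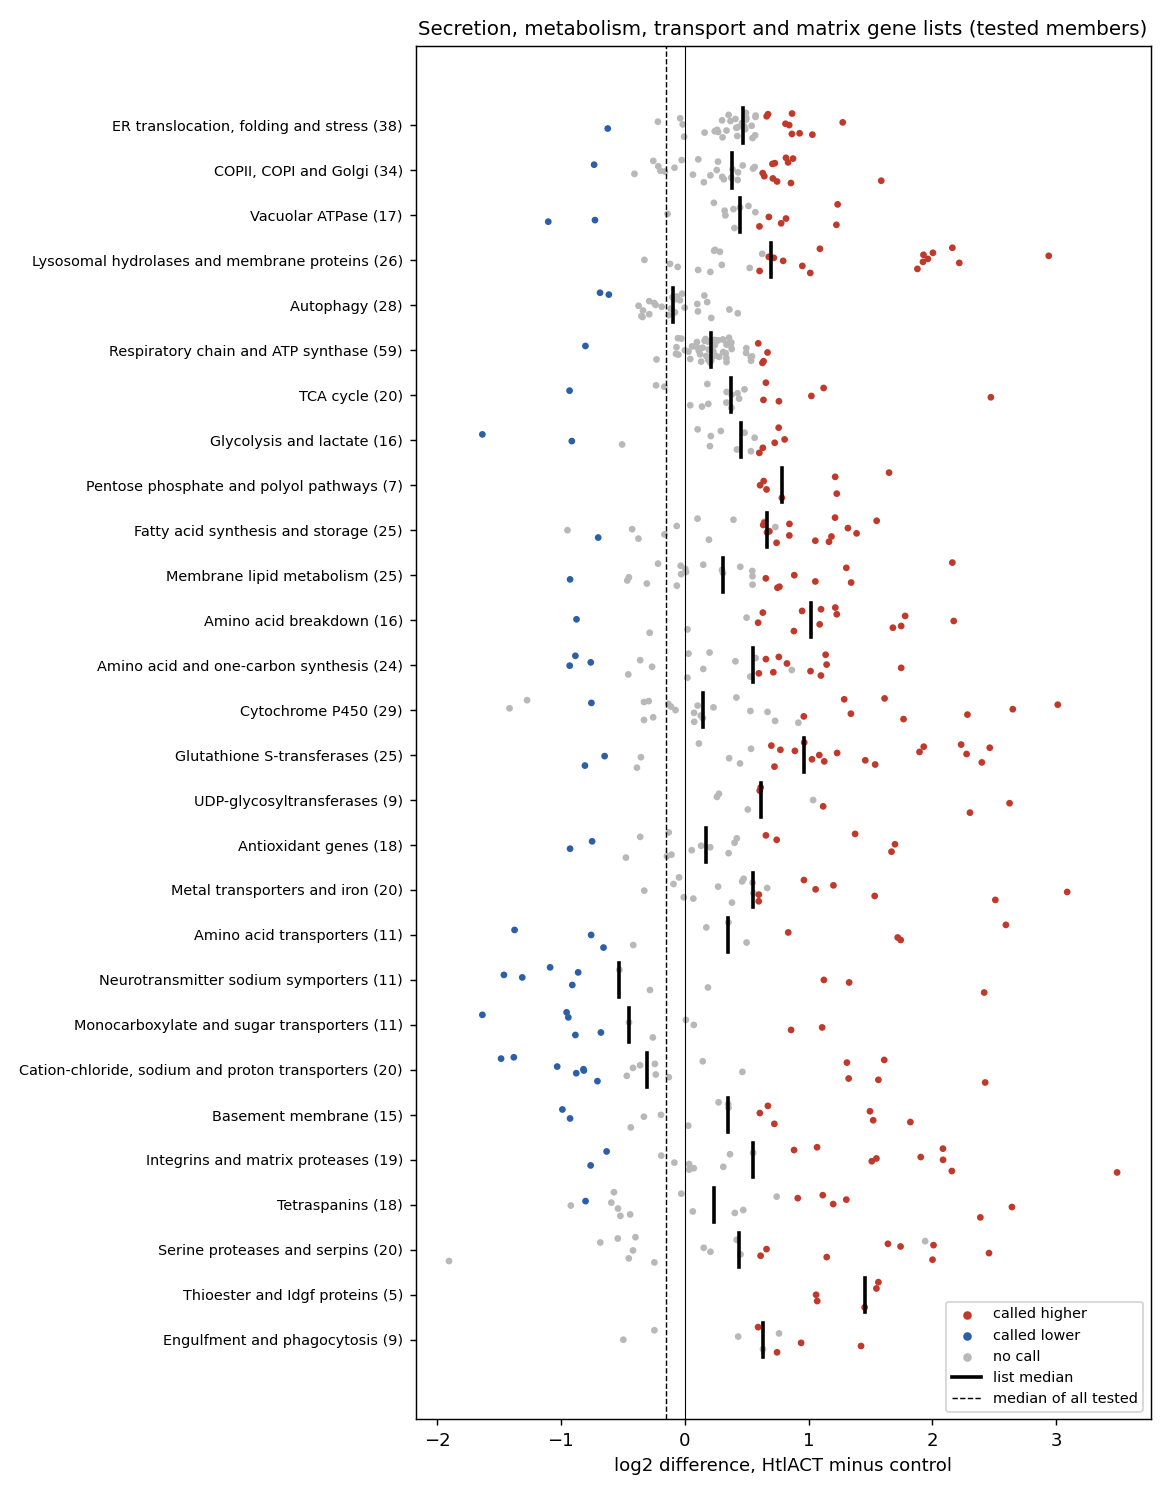
Log2 difference, HtlACT minus control, of each tested member (points) of 28 gene lists of secretion, organelles, metabolism, transport and matrix, with the number tested in brackets, the list median as a black bar and the median of all tested features, -0.15, as a dashed line. Pentose phosphate and thioester or Idgf genes are all red, transporter families hold red and blue points far apart, and autophagy genes lie near 0.

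Turning to signalling, genes of the cascade below the receptor and its target and feedback genes went in both directions. Of 11 tested genes of Ras and MAP kinase transduction 2 fell, 4 without the second HtlACT array, and 1 rose. These are 18.2% lower and 9.09% higher, against 19.2% and 13% of all tested features. Mkp3, a phosphatase that inactivates MAP kinase, rose from 847.3, 669 and 586.7 to 1657, 1617 and 1340 (1.14 ± 0.15, adjusted p = 0.000393), and its other probe set by 1.27. The exchange factor Sos fell from 1195, 1042 and 1027 to 609, 690.3 and 584.5 (-0.79 ± 0.12, adjusted p = 0.000976), and the scaffold ksr from 704.4, 614.7 and 639.9 to 307.6, 389.1 and 416.9 (-0.82 ± 0.18, adjusted p = 0.00456). The adaptor drk, the phosphatase csw and the kinase Dsor1 were not called, at -0.57, -0.53 and -0.35.

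Of 12 targets and feedback genes of the pathway 4 rose and 2 fell. The secreted EGF receptor antagonist aos rose from 682.3, 490.3 and 465 to 1180, 1188 and 1166 (1.13 ± 0.13, adjusted p = 0.000277). The ETS regulator edl rose from 940.7, 730.7 and 757 to 1467, 1518 and 1442 (0.88 ± 0.12, adjusted p = 0.000601), and sprouty, sty, an inhibitor first found through the FGF receptor of the trachea, from 1739, 1367 and 1416 to 2578, 2694 and 2150 (0.72 ± 0.17, adjusted p = 0.00714). The HtlACT values of aos were nearly equal. Krn, an EGF receptor ligand, rose by 0.87. Of the same list kek2 fell, at -1.08, and kek1 and PTP-ER were not called, at -0.27 and -0.51. The ubiquitin ligase Cbl fell from 1981, 2117 and 1917 to 746, 1113 and 1082 (-1.05 ± 0.15, adjusted p = 0.000633), but another probe set gave 721, 790.2 and 904.1 against 1075, 1271 and 1259, so its direction depends on the probe set. Of the Heartless ligands, ths fell from 79.49, 55.78 and 55.12 to 30.6, 41.13 and 22.06 (-1.05 ± 0.32, adjusted p = 0.0229, but up to 0.0746 when an array was left out), and pyr was not called at -0.31.

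Secreted antagonists of insulin rose strongly. Of 16 tested insulin and TOR pathway genes 4 rose and 3 fell, or 25% and 18.8%, against 13% and 19.2% of all tested features. ImpL2, which binds insulin-like peptides in the haemolymph, read 1929, 2007 and 1974 in control tissue and 9742, 10250 and 8378 in HtlACT tissue (2.26 ± 0.11, adjusted p = 7.79e-06). Sdr, the secreted decoy of the insulin receptor, read 530.8, 488.4 and 501.4 against 2139, 1518 and 1839 (1.84 ± 0.16, adjusted p = 5.92e-05). Both had genotypes far apart. The growth inhibitor genes Sesn and foxo rose by 1.25 and 0.90, Sesn with a high first control array (505.8, 226.4 and 250.8 against 760.7, 985.1 and 510.1) and an adjusted p of up to 0.0769 when an array was left out. Ilp2 and Ilp5 were among the 3 that fell.

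The Notch pathway and its targets held a strong increase among decreases. The glycosyltransferase fng, fringe, which modifies the Notch receptor, rose from 1795, 1319 and 1272 to 5049, 5458 and 4764 (1.81 ± 0.16, adjusted p = 7.05e-05). The coactivator mam, mastermind, fell from 3241, 2801 and 2817 to 693.5, 1150 and 1220 (-1.57 ± 0.20, adjusted p = 0.000349), as did numb and neur, by 0.90 and 0.89. Of 13 genes of the E(spl) complex and hairy family, many of which Notch switches on in neuroblasts, 6 fell and 1 rose. E(spl)malpha-BFM went from 727.6, 695.3 and 609 to 271.7, 272.3 and 264.6 (-1.32 ± 0.11, adjusted p = 4.72e-05), and Hey from 761.7, 897.4 and 746.7 to 348.3, 351.6 and 373.8 (-1.16 ± 0.09, adjusted p = 4.88e-05). E(spl)mbeta-HLH, of the same complex, was not called at 0.15.

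Within the TGF-beta family, genes went in both directions. Of 19 tested genes of the BMP and activin branches 6 rose and 6 fell, with a median of -0.14. The BMP ligand gbb rose from 1162, 1164 and 1196 to 2110, 2075 and 1948 (0.80 ± 0.06, adjusted p = 4.23e-05), and the BMP receptor tkv from 1565, 1486 and 1482 to 3165, 2929 and 3257 (1.04 ± 0.07, adjusted p = 2.73e-05). Of the activin branch, the ligand Actbeta fell from 946.5, 787.6 and 876.7 to 371, 426.1 and 446.4 (-1.07 ± 0.10, adjusted p = 7.62e-05) and the Smad protein Smox from 2118, 2108 and 2137 to 1247, 1165 and 1388 (-0.75 ± 0.08, adjusted p = 0.000168). The activin-type ligands daw and mav fell too, by 1.04 and 0.78, whereas myo, of the same branch, rose by 1.79, and tok and tld, proteases that release ligands, fell by 1.06 and 1.27.

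The fly's TNF pathway and its immune pathways rose in part. The TNF ligand egr, eiger, read 2400, 1983 and 1906 in control tissue and 8963, 7868 and 7654 in HtlACT tissue (1.96 ± 0.11, adjusted p = 1.01e-05), and its other probe set rose by 1.7. Its receptor wgn, wengen, read 426.4, 379 and 367.3 against 943.4, 874.7 and 870.8 (1.20 ± 0.11, adjusted p = 7.32e-05), while the adaptors Traf4 and Traf6 fell by 1.0 and 0.80 and the kinase bsk, JNK itself, was not called at -0.37. In the Toll pathway 5 of 13 genes rose and 2 fell: the ligand spz went from 662.7, 497.8 and 466.4 to 1474, 1473 and 1443 (1.45 ± 0.12, adjusted p = 6.4e-05), the adaptor Myd88 from 173.6, 209.5 and 229.7 to 521.4, 475 and 536 (1.33 ± 0.11, adjusted p = 5.26e-05), and the receptor Tl fell from 2942, 2496 and 2576 to 1197, 1487 and 1321 (-1.0 ± 0.12, adjusted p = 0.00034). Upstream of Toll in the embryo act the protease ea, easter, and its inhibitor Spn27A, and both rose, ea from 44.21, 35.1 and 41.03 to 188.8, 127.8 and 169 (2.0 ± 0.19, adjusted p = 9.04e-05) and Spn27A from 528.5, 527.6 and 434.3 to 2200, 2196 and 1633 (2.01 ± 0.13, adjusted p = 2.37e-05). The IMD pathway gave 4 of 9 higher, with imd from 135.6, 133.7 and 141.1 to 213.8, 245.1 and 246.9 (0.78 ± 0.08, adjusted p = 0.000112).

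**Figure D5:**
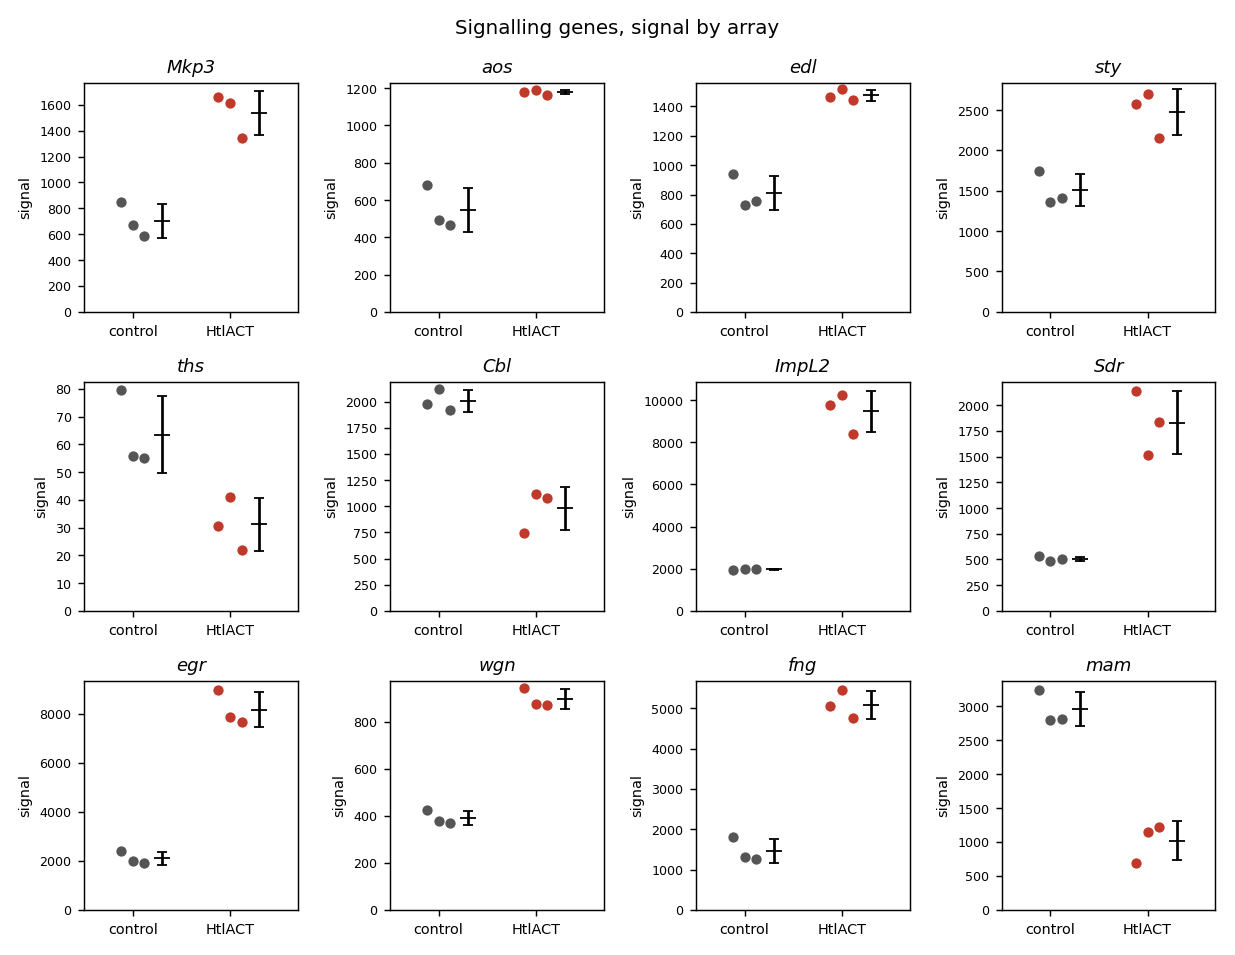
Signal on each array (points, linear axes from 0) with the mean and SD of the 3 arrays (bars) for 12 signalling genes. The feedback inhibitors Mkp3, aos and sty, the insulin antagonists ImpL2 and Sdr, and egr, wgn and fng are higher in HtlACT tissue, and ths, Cbl (its brightest probe set) and mam are lower.

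Of the remaining signalling lists, 6 of 14 Hedgehog and Wnt genes fell (3 after median centring) and 2 rose, Drl-2, a Wnt receptor of axons, going from 773, 881.9 and 852.1 to 252.7, 435.8 and 504.5 (-1.13 ± 0.26, adjusted p = 0.00629). The JAK/STAT ligand upd1 fell from 111.4, 148.9 and 161.1 to 46.34, 51.65 and 50.23 (-1.49 ± 0.16, adjusted p = 0.000198), the single call among 6 genes. Ecdysone response genes were the least even. ImpE2 fell from 513.2, 189.4 and 192.2 to 68.68, 61.63 and 124.1 (-1.72 ± 0.41, adjusted p = 0.00754), Eip93F from 1046, 696 and 550.7 to 157.6, 380 and 304 (-1.49 ± 0.37, adjusted p = 0.00995), and ImpE1 was called higher with groups that overlapped, at 5006, 2061 and 1939 against 4935, 8592 and 6318 (1.25, adjusted p up to 0.0829 when an array was left out). The first control array was the highest of its group for all 3 of these genes, which rise or fall with the ecdysone pulse that ends larval life. Counts for this list ran from 1 to 3 higher and 3 to 7 lower over the alternatives, with 1 higher without the second or the third control or the second or the third HtlACT array and 7 lower without the second HtlACT array, and the part of larval age was not tested.

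Some secreted defence proteins and engulfment genes rose. All 5 tested Idgf and thioester genes rose (median 1.45): the growth factor Idgf3 went from 2769, 3107 and 3188 to 9686, 8846 and 7999 (1.55 ± 0.10, adjusted p = 2.37e-05), and Tep4, a complement-like protein, from 142.6, 183.9 and 112.9 to 344.2, 361.7 and 487.9 (1.45 ± 0.25, adjusted p = 0.00159). Of 20 tested serine proteases and serpins 8 rose. Of 9 engulfment genes 4 rose, and 3 without the second control array, among them ced-6, which acts below the glial engulfment receptor Draper, from 749.9, 720.7 and 841.8 to 2724, 2083 and 1549 (1.42 ± 0.20, adjusted p = 0.000573), and drpr itself by 0.75. Of the apoptosis genes the Bcl-2 relatives Debcl and Buffy rose by 1.25 and 0.66 (Buffy with an adjusted p of up to 0.0775 when an array was left out), and skl, a cell death inducer of the reaper family, fell from 2092, 1892 and 1966 to 1043, 1202 and 1012 (-0.87 ± 0.09, adjusted p = 0.000145). On the deposited scaling the 3 innexin gap junction genes were not called in limma or SAM, while median centring called ogre higher, and at an unadjusted p of 0.05 ogre and Inx2 were higher and Inx3 lower, at 0.51, 0.42 and -0.52.

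Markers of other tissues were read beside these lists. Of 11 tested hemocyte markers 2 fell, 2 others were called higher under quantile normalization or median centring and without the first control or the third HtlACT array, and the summed signal was 3540 to 4391 in control tissue and 3703 to 4334 in HtlACT tissue. Of 13 muscle markers 3 fell, with sums of 1102 to 1738 and 939.5 to 1326, but the count was 0 without the second control array or the second HtlACT array and under quantile normalization or median centring. Of 10 tracheal markers 4 fell, and 2 under either of these scalings or without the first control, first HtlACT or the third HtlACT array, with sums of 2564 to 3491 and 1641 to 2253. Of 5 fat body genes, with a median of -0.87, 1 rose and 1 fell. Their summed signal was 6058 to 13320 in control tissue and 13660 to 14850 in HtlACT tissue, there mostly that of apolpp. Apoltp, a lipid transfer protein, fell from 282.8, 306.7 and 250.5 to 89.02, 179.9 and 167.3 (-1.01 ± 0.26, adjusted p = 0.0116), and apolpp, the lipoprotein precursor, rose from 6132, 6072 and 5222 to 13110, 13960 and 12480 (1.18 ± 0.10, adjusted p = 6.41e-05), while Lsp2, Fbp1 and Fbp2 were not called at -0.87, -1.08 and -0.65. Without the second control array 1065 features were higher and 1576 lower. The hemocyte sums of the genotypes overlapped, beside the engulfment and defence genes that rose. Tracheal sums were lower, and fat body sums higher, on every HtlACT array than on every control array. The part of other tissues in the results was not tested.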

How the data were processed

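RNA of 9 samples (3 genotypes, 3 arrays each) was hybridised to Affymetrix Drosophila Genome 2.0 arrays. The deposited intensity values are MAS5 signals, which the authors made with Affymetrix Expression Console, scaling each array to a 2% trimmed mean. No detection calls entered the analysis. The 18952 probe sets include 183 manufacturer's controls, which were left out. Of the other 18769, 13647 name 1 gene, 402 several and 4720 none in the platform annotation. Each gene was represented by its brightest probe set, and the brighter 8552 of 17104 features were tested (limma 3.58.1, R 4.3.3) on log2 signals, with all 9 arrays in the fit and no covariate. Brightness was the mean log2 signal over all 9 arrays, and the dimmest feature tested had a mean signal of 35.1. Some features passed although most or all arrays of a genotype read under that level. Examples are CtsL2 and AdoR in control tissue and Calx and na in HtlACT tissue. Nothing in the labels says that arrays of a genotype came from separate crosses, so p-values measure only the spread between these samples. The number of arrays limits the precision.

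The gene lists were chosen with earlier results of these data known. Name patterns that took in unrelated genes were corrected after values had been seen. Members were named by a rule: htl and repo, the 12 largest changes in each direction with separate groups, all members of lists of 12 or fewer genes, otherwise up to 5 called members in each direction and the 2 brightest, and the genes nearest the limit. Nrg, MICU3, CG42342, Sgsh and Naglu were named after their values were seen. Alternatives were SAM, quantile normalization, median centring, a pseudocount, other filters, other fits and each array left out. Promoter motifs were not analysed here. Figures were drawn with matplotlib 3.10.9.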

Additional observations from a re-analysis of the deposited data

How the results depend on the processing

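The call of CG42342, whose probe sets disagree, turned from -0.87 to 0.60 (adjusted p = 0.0014 in limma) when a gene's probe sets were averaged, and no other called feature was called in the opposite direction under the alternatives run. Testing only the brightest part of the features (5701) gave 772 higher and 942 lower. Leaving out each array gave 1050 to 1124 higher and 1479 to 1663 lower, and SAM gave 1056 and 1663. The split of the calls depended on scaling, with 40.4% higher as deposited, 50.1% after quantile normalization and 52.7% after median centring. Averaging a gene's probe sets in place of taking the brightest turned the sign of Mmp2 to 0.081 (adjusted p = 0.873 in limma), of nub to 0.211 (0.617) and of pio to 0.076 (0.896). The other probe sets of these genes were all dimmer than the features tested, that of Mmp2 reading 2.085 to 15.88. The cause was not tested. Deviations of same-numbered arrays of the genotypes correlated at -0.04, -0.06 and 0.20, and those of differently numbered arrays at -0.27 to 0.28. With 3 arrays in each genotype these values cannot decide whether the numbers pair the arrays. With the replicate number as a block 1119 features were higher and 1678 lower. Over the named genes, 108 values under an alternative gained and 500 lost a call. Weak signals limit what can be read of odorant receptors and other families that were mostly too dim to test.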

Other observations

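Genes of chromosome 4, the small chromosome that is largely heterochromatic, were lower more often than those of the other chromosomes. Of 58 tested genes there, 23 or 39.7% fell and 4 rose, with a median log2 difference of -0.43, whereas 18.4% to 20.5% of the tested genes of the other chromosomes fell. After quantile normalization or median centring 20 of the 58 fell, and without the second control array 21. Among the genes that fell, toy and ey encode Pax6 factors of the eye and brain, onecut and Sox102F are neuronal factors listed above, and Actbeta is an activin ligand. The pattern was noticed in these data, the difference between chromosomes was not tested, and the share of neuronal genes on chromosome 4 was not tested.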
